A study of Mus musculus with 48 samples.

Results

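A set of 10 genes of cyclic AMP (cAMP) signalling was followed in airspace macrophages of mice with and without Siglec-F. The 10 genes were picked by name from a table of 24411 genes, and all 10 passed the filter on low counts. They encode phosphodiesterases (Pde2a, Pde4b, Pde4d), an adenylyl cyclase (Adcy7), subunits of protein kinase A (Prkar1a, Prkar2b, Prkaca, Prkacb) and transcription factors of the CREB family (Creb1, Crem). They were proposed with earlier results of these data known. In those results Crem was lower in naive Siglec-F knockout (KO) than in wild type (WT) samples, and Pde2a was lower in KO samples at day 14. Differences between KO and WT in naive mice and at day 14 are therefore given for the 10 genes as a description, with no test. So are changes of Crem from the naive mice and of Pde2a at day 14, which draw on the values that chose those genes.

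RNA came from macrophages of bronchoalveolar lavage, from male mice, with 3 mice in each of 8 groups. WT and Siglec F KO mice were either naive, labelled as saline controls of day 0, or sampled 7, 14 or 21 days after bleomycin at 2.5 units/kg into the trachea. Bleomycin injures the lung and leads to scarring. The sources used here do not give strain, age, the KO allele or any sorting of the lavage cells. Replicates are separate mice per the labels.

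cAMP is made from ATP by adenylyl cyclases, which stimulatory G proteins turn on when receptors for prostaglandin E2, adenosine or adrenaline are bound. It releases the catalytic subunits of protein kinase A from their regulatory subunits, and the freed kinase phosphorylates CREB, which switches on genes with a cAMP response element. Phosphodiesterases break cAMP down and end the signal. In macrophages a rise in cAMP is known to restrain inflammatory cytokines, and inhibitors of PDE4 enzymes are used as anti-inflammatory drugs.

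The cAMP response element that CREB binds is written TGACGTCA, with TGACG as its shorter form. Both were searched on both strands of 300-base windows around gene starts (RefSeq, GRCm38.p6, the same assembly as mm10). Each full element also holds a pair of overlapping short ones. Of 32851 windows of all genes, 1.79% held the full and 20.8% the short element. Windows were listed for 9 of the 10 genes, all but Crem, 27 windows in all. The short element was in 8 of the 27 and the full element in 2, both of them overlapping windows of Prkar1a. Shown in 5′ to 3′ order, with matches in capitals, are a window with the full element (Prkar1a), one of the other regulatory subunit gene with no match (Prkar2b), and one of a phosphodiesterase gene with a short element (Pde4b). Which start these macrophages use was not measured, and a match is not a bound site.

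Prkar1a (chr11:109650699-109650998, plus strand): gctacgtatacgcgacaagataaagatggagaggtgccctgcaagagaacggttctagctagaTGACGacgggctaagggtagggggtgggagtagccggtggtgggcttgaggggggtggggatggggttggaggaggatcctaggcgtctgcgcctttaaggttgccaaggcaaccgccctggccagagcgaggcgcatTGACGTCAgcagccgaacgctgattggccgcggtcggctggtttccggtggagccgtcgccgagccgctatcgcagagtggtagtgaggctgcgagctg

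Prkar2b (chr12:32061228-32061527, minus strand): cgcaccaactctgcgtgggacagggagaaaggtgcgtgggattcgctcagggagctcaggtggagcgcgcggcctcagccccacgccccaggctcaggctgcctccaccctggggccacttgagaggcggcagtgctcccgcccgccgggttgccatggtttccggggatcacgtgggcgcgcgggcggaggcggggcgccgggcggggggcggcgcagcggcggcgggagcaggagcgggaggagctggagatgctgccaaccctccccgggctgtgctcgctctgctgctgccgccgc

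Pde4b (chr4:102421305-102421604, plus strand): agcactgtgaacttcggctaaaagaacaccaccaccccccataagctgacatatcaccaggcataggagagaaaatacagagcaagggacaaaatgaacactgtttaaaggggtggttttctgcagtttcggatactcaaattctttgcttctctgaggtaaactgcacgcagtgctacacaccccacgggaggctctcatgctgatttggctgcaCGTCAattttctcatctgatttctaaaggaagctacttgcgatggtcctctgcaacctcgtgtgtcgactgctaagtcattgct

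The Prkar1a window held the full element at bases 202 to 209, counted from 1 at its 5′ end, and another short one at bases 64 to 68. The Pde4b window held a short element at bases 217 to 221. Neither of the 2 windows of Prkar2b held either element.

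Library totals ran from 24877049 to 47457085 counts. Siglecf, the targeted gene, had 0 to 25 counts in each KO library and 2631 to 20368 in each WT library. The samples expressed macrophage genes (Cd68, Lyz2 and 5 others) at a summed 22915 to 57082 CPM (counts scaled to a common library total), and the summed level of 11 resident alveolar macrophage genes, Siglecf among them, was 8375 to 28923 CPM. The 9 recruited monocyte or interstitial macrophage genes (such as Ccr2, C1qa and Apoe) summed to 38.4 to 78.7 CPM in the 6 naive mice and to 1236 to 8167 CPM in the 18 mice after bleomycin. Ly6c2 was at 0 counts in the 3 WT naive libraries and at 0 to 3 in the KO naive ones. Epithelial genes summed to 17.5 to 157 CPM, neutrophil genes to 49.5 to 146 and eosinophil genes to 0 to 2.1, and the neutrophil gene Ly6g was not among the genes of the table. The sum of T or NK cell genes was 0 to 0.437 CPM in naive mice and 4.02 to 40 after bleomycin, and that of dendritic cell genes 0.66 to 1.62 and 2.99 to 19 CPM. Their part in the bleomycin changes was not tested. Because these are bulk samples, a change in the share of a cell type and a change in RNA per cell cannot be told apart.

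Bleomycin moved 5, 4 and 4 of the 10 genes in WT mice on days 7, 14 and 21, and 5, 3 and 4 in KO mice. These are calls of edgeR's quasi-likelihood test at a Benjamini-Hochberg adjusted p under 0.05 over 12634 genes. Of all genes tested, 35.5%, 32.1% and 32.5% were called in WT mice on the same days and 34.1%, 16.9% and 21.9% in KO mice. In WT mice 20.2%, 18.7% and 18.8% of all genes were called higher and 15.3%, 13.4% and 13.7% lower. In KO mice 19.7%, 12% and 15% were called higher and 14.4%, 4.84% and 6.89% lower. The counts include Pde2a at day 14 and Crem, which stand there as a description. Counts of 3 to 5 in 10 are not read as a property of these genes. Adcy7 was called higher and Prkar2b lower in all 6 comparisons, and Pde2a was higher in all 6, at day 14 as a description. Comparisons within a genotype share their 3 naive mice. Among the others Pde4d fell at day 7 in both genotypes, Pde4b fell in WT mice at days 7 and 21, Crem was counted lower in WT mice at day 14 and higher in KO mice at day 21, and Prkacb rose in KO mice at day 7. Prkar1a, Prkaca and Creb1 were called in none of the 6 comparisons.

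**Figure D1:**
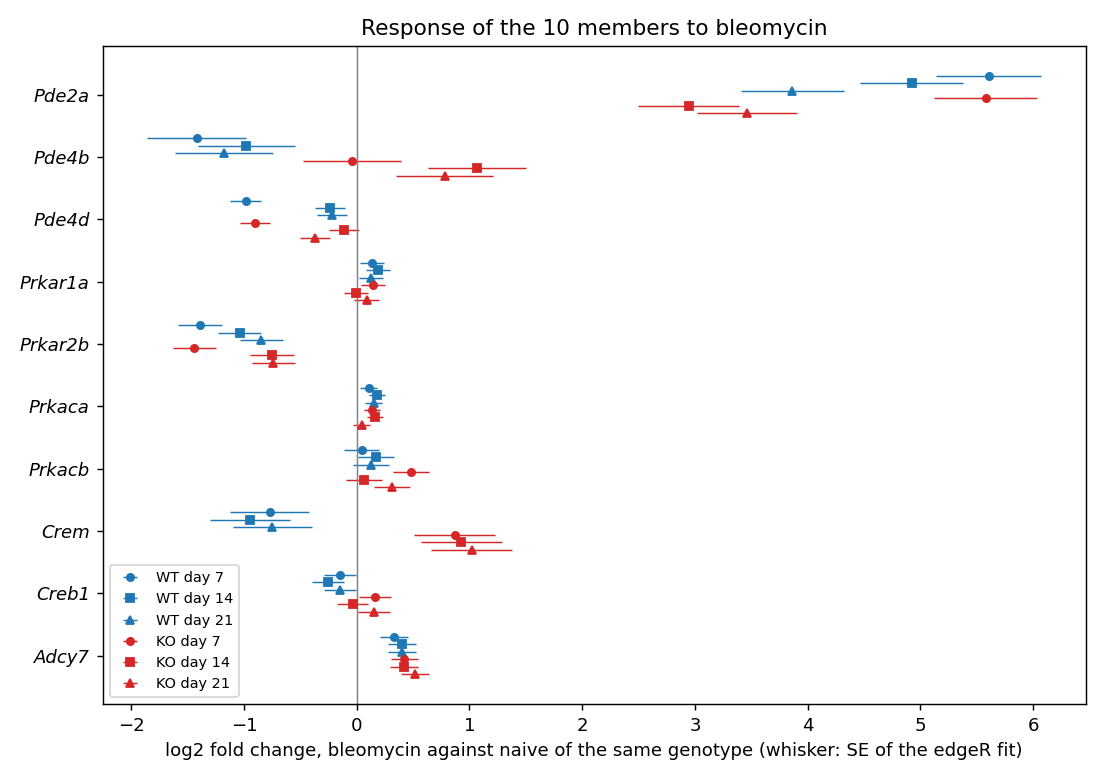
Log2 fold change after bleomycin against naive mice of the same genotype for the 10 genes, from the edgeR fit on 3 mice per group. Points are the 3 days in WT (blue) and KO (red) mice and whiskers are 1 SE. Pde2a stands at 2.94 to 5.60, Prkar2b lies below 0 at each point, and Crem lies below 0 in WT and above 0 in KO mice.

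Pde2a encodes a phosphodiesterase that cyclic GMP stimulates to break down cAMP (mm10 chromosome 7, 101421691 to 101512827). It was close to absent in naive macrophages, with 11 to 14 counts in each WT and 5 to 21 in each KO library. WT naive mice had 0.427, 0.411 and 0.218 CPM and KO naive mice 0.368, 0.507 and 0.115 CPM. At day 7 it stood at 19.1, 15 and 15.6 CPM in WT mice and at 18.8, 16.1 and 12.7 in KO mice. The naive mice of both genotypes overlapped, and so did the day 7 mice, with no naive mouse near any day 7 mouse.

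The rise of Pde2a at day 7 was 48.6-fold in WT mice (log2 fold change 5.60, SE 0.46, edgeR adjusted p = 2.3e-08) and 47.8-fold in KO mice (5.58, SE 0.46, edgeR adjusted p = 1.8e-08). No difference between KO and WT mice was called at day 7, with a log2 difference of -0.06 and a 95% interval of -0.78 to 0.66 (edgeR adjusted p = 1). At day 14 WT mice had 8.64, 9.29 and 13 CPM and KO mice 3.37, 3.03 and 1.32, so that each KO mouse lay below each WT mouse. That difference, 4.04-fold (log2 -2.01, SE 0.37), is one of those by which the genes were chosen, in a comparison that called 0.135% of all genes. It ran from -2.25 to -1.69 when each of the 6 mice was left out in turn. At day 21 WT mice had 4.73, 4.54 and 5.6 CPM and KO mice 1.92, 5.68 and 3.41, which overlapped (log2 difference -0.44, interval -1.19 to 0.32, edgeR adjusted p = 0.77).

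Against naive mice, Pde2a was still 14.6-fold higher in WT and 11-fold higher in KO mice at day 21 (edgeR adjusted p = 2.3e-06 and 9.3e-06). At day 14 it was 30.3-fold and 7.7-fold higher, given without a test. The order of group means from lowest to highest was KO naive, WT naive, KO day 14, KO day 21, WT day 21, WT day 14, KO day 7 and WT day 7. Neighbours in that order overlapped, except that WT naive lay wholly below KO day 14 and WT day 21 wholly below WT day 14. The genotype difference in the response was -0.02 on the log2 scale at day 7 (SE 0.64, edgeR adjusted p = 1) and -0.40 at day 21 (SE 0.65, adjusted p = 0.9). At day 14 it was -1.98 (SE 0.65), a description since it is built from differences known beforehand.

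The 5 genes whose levels over the 24 mice were most like those of Pde2a were Tlr9, Stab1, Ly86, Plbd1 and Itgam, among 9179 genes with a mean of at least 5 CPM. Pearson's r of log2(CPM + 1) was 0.98 for each of the 5 and serves only as a measure of likeness, since all mice share the split between naive and treated. The 9 recruited or interstitial genes were also low in naive and high in treated mice. From WT day 7 to WT day 14 their sum was higher (3731 to 4603, then 4748 to 8167 CPM) while Pde2a was lower (15 to 19.1, then 8.64 to 13 CPM). The genes of the list did not move alike. Apoe was higher (302 to 1817, then 2449 to 4529 CPM). Ccr2 (302 to 324, then 71.7 to 140 CPM), Ly6c2 (70.7 to 92.8, then 2.9 to 9.55) and Cx3cr1 (90.5 to 108, then 43.4 to 82.1) were lower. The rest overlapped. At day 14 the summed level of the 9 genes was 4748, 6101 and 8167 CPM in WT mice 1 to 3 and 4178, 2641 and 1236 CPM in KO mice 1 to 3, without overlap. At day 21 KO mouse 1 had the lowest sum, 1421 CPM, and the lowest Pde2a of its group. Day 7 and day 21 mice had sums in the same range, 2727 to 5856 and 1421 to 6087 CPM, while Pde2a at day 7 was above 12 CPM in each mouse and at day 21 below 6. Single genes of the list differed between these days in the same mice. Ccr2 was at 274 to 359 CPM on day 7 and 32.1 to 91.9 on day 21. Ly6c2 was at 59.2 to 92.8 and 0.65 to 6.29 CPM, and Cx3cr1 at 65.7 to 121 and 8.46 to 38.7. The rest of the 9 genes overlapped. The part of recruited cells in the Pde2a difference was not tested.

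**Figure D2:**
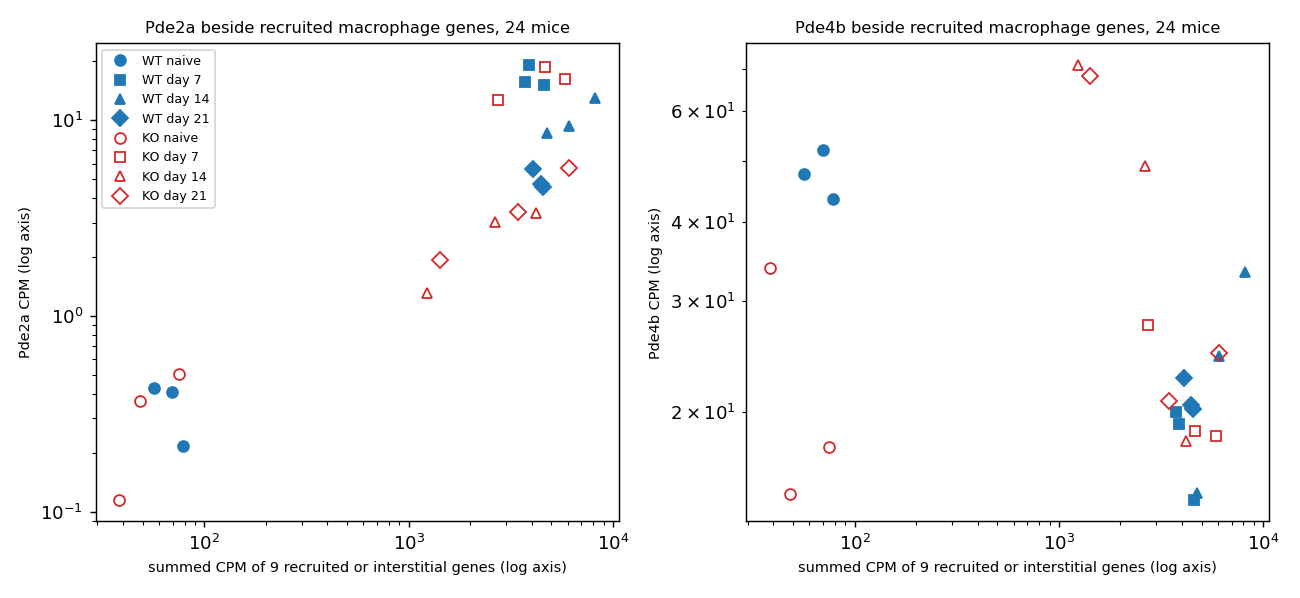
Level of Pde2a (left) and Pde4b (right) in CPM against the summed CPM of 9 recruited or interstitial macrophage genes, both on log axes. Each point is 1 of 24 mice, filled blue for WT and open red for KO, with the day shown by the shape. The naive mice lie at sums of 38.4 to 78.7 with Pde2a under 0.51, and the 3 KO mice with Pde4b above 49 after bleomycin have sums of 2641, 1236 and 1421. Among WT day 14 mice the highest sum, 8167, goes with the highest Pde4b, 33.3.

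Pde4b encodes a cAMP-specific phosphodiesterase known as the main PDE4 form induced in activated monocytes and macrophages (mm10 chromosome 4, 102087543 to 102607259). WT naive mice had 47.8, 52.1 and 43.5 CPM. In WT mice after bleomycin it stood at 19.1, 14.5 and 20 CPM on day 7, 14.9, 24.5 and 33.3 on day 14 and 20.5, 20.2 and 22.6 on day 21, each below each naive mouse. It fell 2.67-fold at day 7 (log2 -1.42, SE 0.44, edgeR adjusted p = 0.016; 0.057 without WT day 7 mouse 2) and 2.26-fold at day 21 (log2 -1.18, SE 0.44, adjusted p = 0.044). The day 21 call was lost whichever of the 6 mice was left out (adjusted p of 0.067 to 0.1). The day 14 value, 1.97-fold lower, missed the threshold (adjusted p = 0.091), and passed it in a model of those 2 groups alone (0.019).

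In KO mice no change of Pde4b was called. KO naive mice had 14.8, 17.6 and 33.8 CPM, each below each WT naive mouse, a log2 difference of -1.11 (SE 0.43) given without a test. After bleomycin KO mice had 18.7, 18.3 and 27.5 CPM on day 7, 18, 49.1 and 71.1 on day 14 and 68.2, 24.8 and 20.8 on day 21. The KO mice far above the rest were mice 2 and 3 of day 14 and mouse 1 of day 21, which were also the 3 lowest of the 18 treated mice for the recruited genes. In WT day 14 mice the order ran the other way, with recruited sums of 4748, 6101 and 8167 CPM and Pde4b at 14.9, 24.5 and 33.3. Naive sums were lower still, 38.4 to 75 CPM in KO mice and 56.8 to 78.7 in WT mice. Pde4b was at 14.8 to 33.8 CPM in those KO mice and at 43.5 to 52.1 in those WT mice. The part of recruited cells in the Pde4b levels was not tested. Against KO naive mice the edgeR adjusted p was 0.96, 0.1 and 0.21 on the 3 days. Day 14 passed without KO naive mouse 3 (adjusted p = 0.048) or KO day 14 mouse 1 (0.026). The genotype difference in the response was 1.38 at day 7 and 1.96 at day 21 on the log2 scale (SE 0.61 for both, edgeR adjusted p = 0.76 and 0.18), and 2.04 at day 14, given without a test. The day 21 value ran from 1.22, without KO day 21 mouse 1, to 2.41, without KO naive mouse 3. Without that KO day 21 mouse the KO change at day 21 was 0.05 in place of 0.78. The genotype differences in the Pde4b response include the naive difference of -1.11, for which no test is given. Between treated KO and WT mice the log2 difference was 0.26 at day 7 (interval -0.64 to 1.17) and 0.85 at day 21 (interval -0.06 to 1.75).

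Pde4d encodes another cAMP-specific phosphodiesterase, expressed in many tissues. It fell at day 7 in both genotypes and was called at neither later day. WT mice had 19.7, 26.2 and 26.7 CPM when naive and 11, 12.9 and 12.8 at day 7, and KO mice 25.4, 24.5 and 24.6 and then 11, 12.9 and 16. The groups did not overlap. The fall was 1.98-fold in WT mice (log2 -0.98, SE 0.14, edgeR adjusted p = 1.3e-05) and 1.87-fold in KO mice (-0.90, SE 0.13, adjusted p = 3.2e-05). At day 14 WT mice ranged from 19.5 to 21.7 CPM and KO mice from 22 to 24.2, and at day 21 from 19.6 to 23.1 and from 17 to 21.3. KO against WT differed by 0.12 at day 7 and -0.11 at day 21 on the log2 scale, with intervals of -0.16 to 0.40 and -0.39 to 0.17. Against naive mice the KO day 21 value was -0.37 (edgeR adjusted p = 0.052, and 0.048 with DESeq2). The WT day 14 value was -0.23 (adjusted p = 0.19, and 0.049 without WT naive mouse 1).

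**Figure D3:**
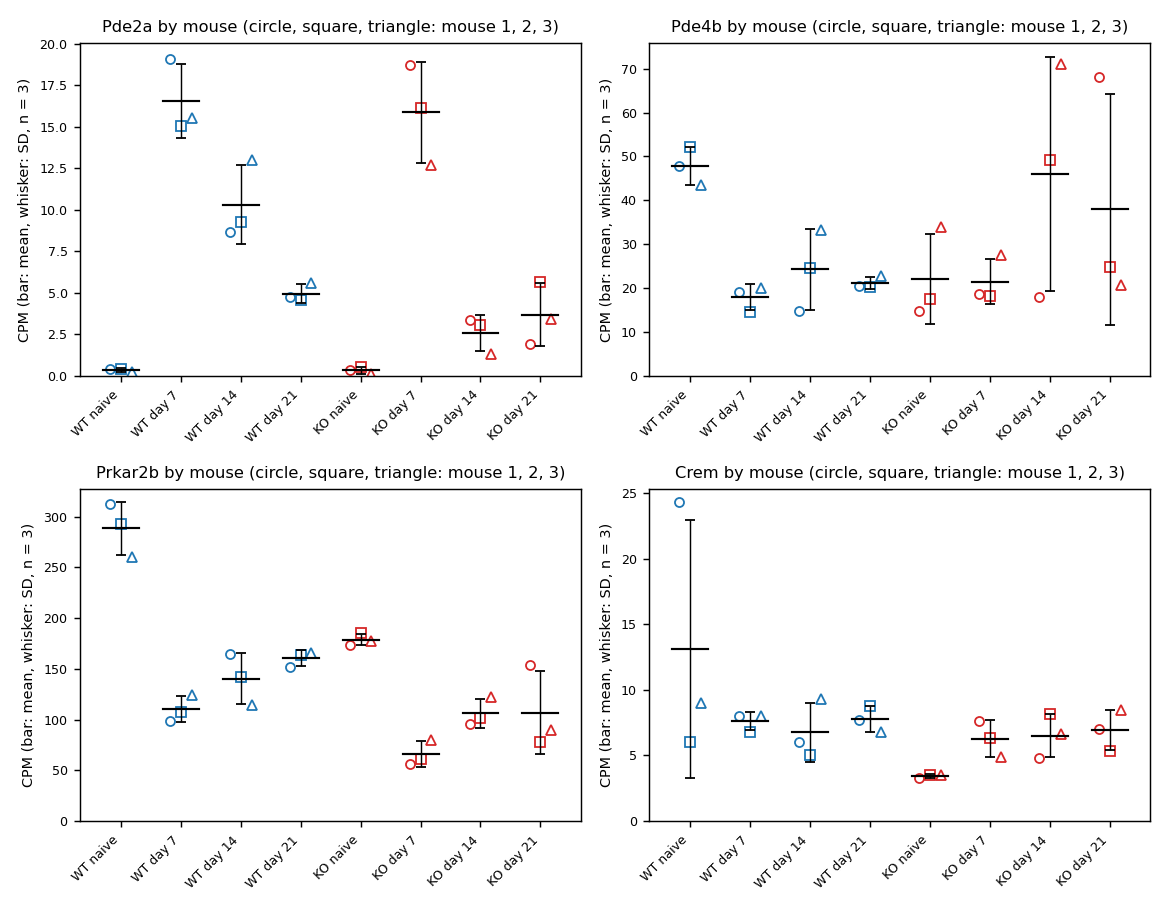
Level of Pde2a, Pde4b, Prkar2b and Crem in CPM in each of 24 mice, by group, with mice 1, 2 and 3 as circle, square and triangle, WT in blue and KO in red. Bars are means and whiskers 1 SD of 3 mice. Prkar2b is highest in WT naive mice (260 to 312 CPM), and the Crem mean of WT naive mice includes 1 mouse at 24.3 CPM.

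Adcy7 encodes an adenylyl cyclase common in blood cells and macrophages. It rose a little after bleomycin in both genotypes. WT naive mice had 186, 202 and 173 CPM and KO naive mice 171, 204 and 178, against 228 to 263 CPM in the 9 treated WT mice and 209 to 299 in the 9 treated KO mice, with no treated mouse in the naive range of its genotype. The increase was 1.26-fold, 1.32-fold and 1.32-fold in WT mice at days 7, 14 and 21 (edgeR adjusted p = 0.042, 0.017 and 0.017) and 1.34-fold, 1.34-fold and 1.43-fold in KO mice (0.011, 0.022 and 0.0045). The KO day 21 call was kept whichever mouse was left out (highest adjusted p = 0.037). The WT day 7 call was lost without any 1 of 5 of the 6 mice (adjusted p of 0.069 to 0.15), all but WT naive mouse 2, and the KO day 14 call without KO naive mouse 1 or 3 or KO day 14 mouse 1 (0.079 to 0.18). WT day 14 was lost without WT naive mouse 3 or WT day 14 mouse 2 (0.074 and 0.067), WT day 21 without WT naive mouse 3 or WT day 21 mouse 1 or 3 (0.056 to 0.073), and KO day 7 without KO naive mouse 1 (0.055). Models of the compared groups alone lost WT day 7 and KO days 14 and 21 (0.058, 0.068 and 0.069), and a fit with no filter lost WT day 7 (0.055). KO and WT mice differed by 0.07 at day 7 and 0.10 at day 21 on the log2 scale (intervals -0.19 to 0.33 and -0.16 to 0.35).

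Protein kinase A is a pair of regulatory subunits holding a pair of catalytic subunits. Prkar2b encodes the RII-beta regulatory subunit, which anchoring proteins hold at membranes and other sites (mm10 chromosome 12, 31958476 to 32061296). It was the only one of the 10 genes called lower in all 6 bleomycin comparisons. WT mice had 312, 293 and 260 CPM when naive, 99, 108 and 124 on day 7, 165, 142 and 114 on day 14 and 152, 164 and 166 on day 21. KO mice had 174, 185 and 178 CPM when naive, 56.3, 61.3 and 80.2 on day 7, 95.2, 101 and 122 on day 14 and 154, 77.6 and 89.5 on day 21. No treated mouse reached the naive range of its genotype. The fall in WT mice was 2.62-fold, 2.05-fold and 1.8-fold on the 3 days (edgeR adjusted p = 1.5e-05, 0.00035 and 0.0021). In KO mice it was 2.71-fold, 1.68-fold and 1.67-fold (1e-05, 0.0093 and 0.008). The KO day 14 call was lost without KO day 14 mouse 1 (adjusted p = 0.053). The KO day 21 call was lost without KO day 21 mouse 2 or 3 (0.06 and 0.054) and in a model of those 2 groups alone (0.087).

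The summed resident alveolar macrophage genes were 22432 to 28923 CPM in WT naive and 25287 to 26650 in KO naive mice, against 8470 to 10622 and 8375 to 12165 at day 7. Chil3 was the largest part of these sums, at 14440 to 20057 CPM in WT naive and 4686 to 6058 in WT day 7 mice. Between these groups Marco overlapped (460 to 715, then 468 to 774 CPM), and so did Car4 (425 to 629, then 453 to 643). Bhlhe41 overlapped too (106 to 177, then 154 to 205), and the rest of the list was lower at WT day 7. KO day 14 mouse 3 had a resident sum of 25020 CPM, near the KO naive range, with Prkar2b at 122 CPM, below that of KO naive mice. Chil3 alone gave 17289 CPM of that sum, and other genes of the list did not move alike. Ear2 (1199 CPM) and Krt79 (214) were below KO naive mice (1840 to 1979 and 397 to 538). Car4 (1228) was above them (325 to 516). The recruited gene sum of that mouse was 1236 CPM, against 38.4 to 75 in KO naive mice. KO day 21 mouse 1, the highest of its group for Prkar2b, was also its highest for these genes (23043 CPM). Their part in the fall of Prkar2b was not tested.

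The KO means of Prkar2b were below the WT means at each time. KO naive mice lay below WT naive mice with no overlap (log2 -0.69, SE 0.19, given without a test), in a comparison that called 0.546% of all genes. The resident gene sums of these naive mice overlapped. Of the single genes of that list, Siglecf and Bhlhe41 (106 to 177 CPM in WT and 233 to 307 in KO mice) did not overlap, and the rest did. At day 14 the Prkar2b difference was -0.40 (SE 0.19), with mice that overlapped, also given without a test. At day 7 the difference was -0.74 (interval -1.14 to -0.34) with no overlap, and at day 21 -0.59 (interval -0.98 to -0.19) with overlap through KO day 21 mouse 1, but neither passed over all genes (edgeR adjusted p = 0.67 and 0.26). In these comparisons 0.00792% and 0.095% of all genes were called, and without KO day 21 mouse 1 the day 21 value was -0.94 (adjusted p = 0.028). The genotype difference in the response was -0.05 at day 7 and 0.10 at day 21 on the log2 scale (SE 0.27 for both, edgeR adjusted p = 1 and 0.96).

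Prkar1a encodes RI-alpha, the regulatory subunit found in nearly all cells and mostly soluble. It lay between 222 and 320 CPM in all 24 mice. WT means were 251 ± 44.3 CPM (SD, n = 3) in naive mice and 276 ± 39.9, 286 ± 20.2 and 274 ± 11.1 at days 7, 14 and 21, and KO means 253 ± 6.53, 280 ± 21, 252 ± 9 and 268 ± 8.92. Without WT naive mouse 1, at 302 CPM against 228 and 222 in the other WT naive mice, Prkar1a was called higher in WT mice on each day (log2 0.29, 0.34 and 0.28, edgeR adjusted p of 0.028, 0.014 and 0.038).

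Set against Prkar1a in the same mouse, and per kilobase of exon, Prkar2b was the higher of the pair only in WT naive mice. Its ratio to Prkar1a was 1.22, 1.52 and 1.39 there and 0.839, 0.849 and 0.826 in KO naive mice. At day 7 it was 0.366, 0.524 and 0.554 in WT and 0.225, 0.253 and 0.371 in KO mice. By day 21 it stood at 0.668, 0.678 and 0.739 in WT mice and at 0.665, 0.335 and 0.41 in KO mice. The ratio was under 1 in all 21 mice outside the WT naive group. This ratio was chosen after the values were seen, and lengths are of GENCODE M21 exons, which may not be the authors' gene models.

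**Figure D4:**
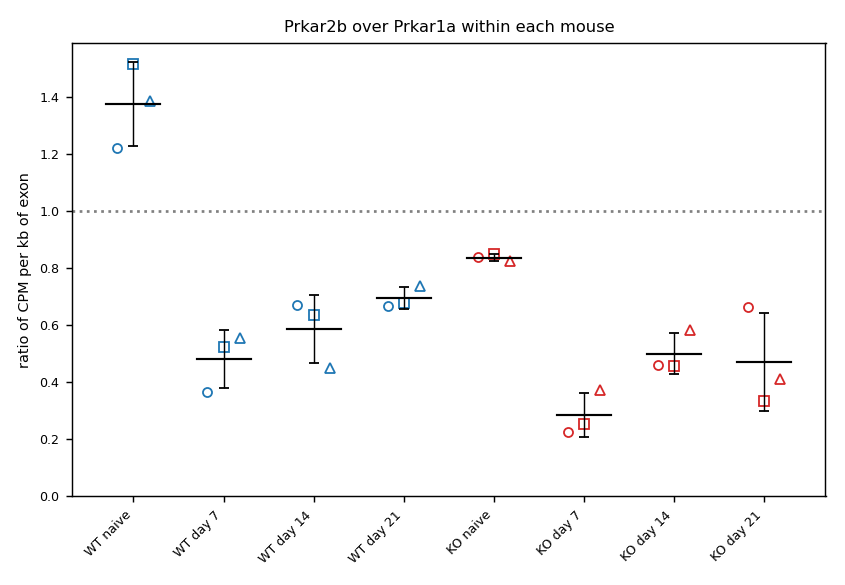
Ratio of Prkar2b to Prkar1a within each mouse, both in CPM per kilobase of exon, by group, with mice 1, 2 and 3 as circle, square and triangle. Bars are means and whiskers 1 SD of 3 mice, and the dotted line marks equal levels. The WT naive mice (1.22 to 1.52) lie above the line and every other mouse below it.

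Of the catalytic subunit genes only Prkacb was called, once. Prkaca, for C-alpha, ranged from 73.6 to 91.7 CPM over all 24 mice, and its largest change after bleomycin was 1.13-fold, in WT mice at day 14 (edgeR adjusted p = 0.064, and 0.047 with median-ratio scaling, 0.025 with DESeq2 and 0.036 without WT day 14 mouse 3). Prkacb, for C-beta, ranged from 53.6 to 97.5 CPM. It rose in KO mice at day 7, from 53.6, 76.7 and 68.7 CPM to 97.5, 95.2 and 84.7 (1.39-fold, log2 0.48, SE 0.16, edgeR adjusted p = 0.024), a call lost without KO naive mouse 1 or KO day 7 mouse 1 or 2 (adjusted p of 0.065 to 0.13). In WT mice at day 7 Prkacb was 1.03-fold higher (adjusted p = 0.86), and the difference between the 2 responses was 0.44 on the log2 scale (SE 0.22, adjusted p = 0.83). At day 7 each KO mouse was above each WT mouse (log2 0.35, interval 0.02 to 0.68, edgeR adjusted p = 1).

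Crem encodes a CREB-family factor whose short product ICER, made from an internal start that cAMP itself switches on, represses cAMP-responsive genes. Counts per gene do not separate ICER from the other products. In WT naive mice Crem stood at 24.3, 5.99 and 9.03 CPM, so that mouse 1 was far above the other WT naive mice. KO naive mice had 3.26, 3.53 and 3.51 CPM, each below each WT naive mouse. The log2 difference was -1.92 (SE 0.36), a value by which the genes were chosen, and it was -1.13 without WT naive mouse 1. That mouse also had the highest sum of 12 immediate-early and heat shock genes of the 24 mice (4 of them, Fos, Fosb, Junb and Dusp1, are also on the list of cAMP-induced genes), 772 CPM against 501 and 643 in the other WT naive mice and 419 to 511 in KO naive mice. Its share of the ribosomal RNA gene Rn45s was 6.0% against 0.743% and 2.59%, and KO naive mice had 2.87% to 3.44%. The highest Rn45s share of the 24 mice, 8.19%, was in WT day 7 mouse 1, with Crem at 8.04 CPM. The part of these in the Crem level was not tested.

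After bleomycin the Crem levels of the genotypes overlapped. WT mice ranged from 5.01 to 9.27 CPM over the 9 treated mice and KO mice from 4.81 to 8.46. The KO mice were each above each KO naive mouse on each of the 3 days. Against their naive mice KO mice stood 1.83-fold, 1.9-fold and 2.03-fold higher on the 3 days (log2 0.87, 0.93 and 1.02, SE 0.36 for each). In WT mice the log2 changes were -0.77, -0.94 and -0.75, and 0.02, -0.15 and 0.05 without WT naive mouse 1. Both sets start from the naive values by which Crem was chosen, so neither is a test of a response. Between the genotypes no difference was called in treated mice, with log2 differences of -0.28 at day 7 (interval -1.02 to 0.45) and -0.16 at day 21 (interval -0.89 to 0.58).

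The difference between the genotypes in the Crem change was 1.64, 1.87 and 1.77 on the 3 days on the log2 scale, and 0.85, 1.08 and 0.97 without WT naive mouse 1. It consists mostly of the naive difference that chose the gene and is given without a test. The genes most like Crem over the 24 mice were Tnfaip8, Mknk2, Btbd1, Usp3 and Ist1, with Pearson's r of 0.81, 0.77, 0.77, 0.76 and 0.75. WT naive mouse 1 was the highest of the 24 mice for each of these 5 genes, and without it r was 0.69, 0.62, 0.55, 0.57 and 0.50 (chosen after seeing the values).

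Creb1 encodes CREB itself, which protein kinase A switches on by phosphorylation and not through its RNA level. It ranged from 37.5 to 57.6 CPM over the 24 mice, and its log2 changes after bleomycin ran from -0.26 to 0.17 with an edgeR adjusted p of 0.18 to 0.9. KO against WT was 0.14 at day 7 and 0.13 at day 21, with intervals of -0.15 to 0.44 and -0.16 to 0.43.

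**Figure D5:**
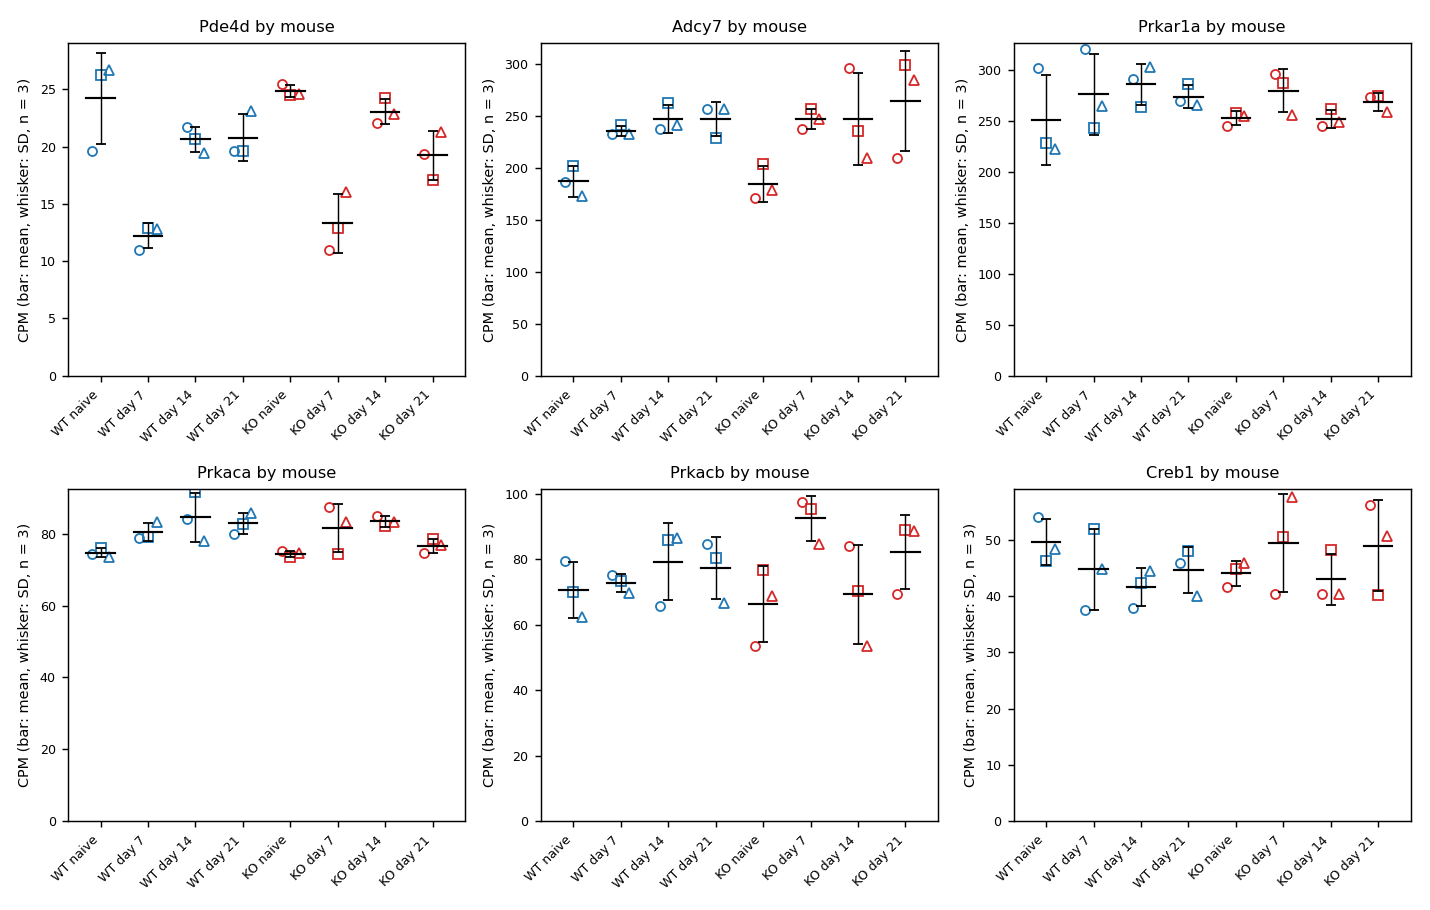
Level of Pde4d, Adcy7, Prkar1a, Prkaca, Prkacb and Creb1 in CPM in each of 24 mice, by group (mice 1, 2 and 3 as circle, square and triangle, WT blue, KO red). Bars are means and whiskers 1 SD of 3 mice. Pde4d is lowest at day 7 in both genotypes (11 to 16 CPM), Adcy7 is lowest in naive mice, and Prkaca stays within 73.6 to 91.7 CPM.

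Between KO and WT mice 0 of the 10 genes were called at day 7 and 0 at day 21 by edgeR, with 2 and 1 at an unadjusted p under 0.05 and 0 and 0 by DESeq2. By edgeR 0.00792% and 0.095% of all genes were called there. The share of all genes at an unadjusted p under 0.05 was not counted. Of the 9 genes other than Crem, 0 were called for a genotype difference in the response at day 7 or day 21 (1 and 1 at an unadjusted p under 0.05, Pde4b on both days, and 0 by DESeq2), where 0.00792% and 0.332% of all genes were.

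Around the 10 genes, 98 others of the pathway were listed in 8 groups by role, and 70 of them passed the filter on low counts. In WT mice 20 rose and 16 fell on day 7, 26 and 12 on day 14 and 23 and 9 on day 21. In KO mice 22 rose and 12 fell at day 7, 22 and 5 at day 14 and 20 and 6 at day 21. These counts stand beside the shares of all genes given above, 12% to 20.2% higher and 4.84% to 15.3% lower. The median log2 change of the 70 was 0.04, 0.20 and 0.32 in WT and 0.17, 0.16 and 0.17 in KO mice, beside 0.02, 0.00 and 0.00, and 0.02, 0.01 and 0.01, over all genes tested. Between KO and WT mice 0 of the 70 were called in naive mice or at days 7, 14 and 21, with 13, 2, 14 and 7 at an unadjusted p under 0.05. DESeq2 called 0, 0, 1 and 0 of them. By edgeR 0.546%, 0.00792%, 0.135% and 0.095% of all genes were called in these comparisons. The share of all genes at the unadjusted cut was not counted, so counts at that cut are not read as an excess.

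Receptors and cyclases stand upstream of the kinase. Of 13 tested receptor genes 8 rose and 5 fell in WT mice at day 7, where 20.2% and 15.3% of all genes did, and 6 rose and 4 fell in KO mice, beside 19.7% and 14.4%. Adora2b, an adenosine receptor that raises cAMP, rose from 3.25 to 20.6 CPM in WT mice and from 1.72 to 22 CPM in KO mice at day 7 (edgeR adjusted p = 2.3e-06 and 6.6e-08). Gpr84, a receptor for medium-chain fatty acids that lowers cAMP, rose from 1.36 to 12.5 CPM in WT mice at day 7 (9.22-fold, edgeR adjusted p = 1.7e-06). Over the 3 days 18.7% to 20.2% of all genes tested rose and 13.4% to 15.3% fell in WT mice. Of 4 tested cyclases other than Adcy7, 3 rose and 1 fell in WT mice on each day. The one that fell was Adcy3, from 359 ± 46.6 to 111 ± 11.5 CPM in WT mice at day 7 (3.22-fold) and from 366 ± 14.3 to 111 ± 23.3 in KO mice (3.29-fold). Adcy4 rose in KO mice at day 14, from 1.3 to 7.13 CPM (5.46-fold, edgeR adjusted p = 1.3e-05). It was also among the 3 that rose in WT mice at day 7. A gene given in 1 genotype, here or below, follows from the rule for naming genes and is not read as particular to that genotype. Of 5 tested G protein genes 0 rose on any day in either genotype, and 2, 1 and 2 fell in WT mice. Among all genes tested 12% to 20.2% rose, and 13.4% to 15.3% fell in WT mice.

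Among the other phosphodiesterase genes, Pde7b, for a cAMP-specific enzyme, appeared from near 0. KO naive libraries held 0 counts of it and those of day 7 averaged 3.53 CPM, at least 151-fold higher when set against 3 counts over the naive group. In WT mice its mean was 0.0132 CPM when naive and 3.55, 4.79 and 3.38 CPM on the 3 days. Of 10 tested members of this group 3, 3 and 4 rose in WT and 4, 4 and 4 in KO mice on the 3 days, while 1, 1 and 0 and 3, 1 and 1 fell. Among all genes tested 18.7% to 20.2% rose in WT and 12% to 19.7% in KO mice. The shares that fell were 13.4% to 15.3% and 4.84% to 14.4%. Prkar1b, for another regulatory subunit, was low and rose from 0.189 to 3.09, 3.97 and 2.5 CPM in WT mice and from 0.158 to 4.11 CPM at day 7 in KO mice.

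Of 15 tested genes that cAMP is known to induce, 4, 9 and 5 rose in WT mice on days 7, 14 and 21 and 6, 7 and 5 in KO mice, while 4, 2 and 0 and 1, 0 and 0 fell. Of all genes tested 20.2%, 18.7% and 18.8% rose in WT and 19.7%, 12% and 15% in KO mice on those days. The shares that fell were 15.3%, 13.4% and 13.7% in WT and 14.4%, 4.84% and 6.89% in KO mice. Sik1, a kinase that restrains CREB coactivators, rose in KO mice from 4.55 CPM to 24.7 by day 14 and 26.5 by day 21 (5.43-fold and 5.82-fold, edgeR adjusted p = 8.3e-06 and 4.2e-06). In WT mice it went from 7.94 to 25.7 CPM at day 14 (3.22-fold, adjusted p = 0.0002). Junb, an AP-1 factor, rose from 66.9 to 182 CPM (2.72-fold) in WT mice at day 14 (adjusted p = 1.2e-06). Thbs1, for the matrix protein thrombospondin 1, rose from 0.0882 to 112 CPM in WT and from 0.0774 to 186 CPM in KO mice at day 7. Other signals also induce these genes, and recruited macrophage genes rose in the same mice, so the part of cAMP or of recruited cells in these changes was not tested.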

How the data were processed

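The authors deposited expected counts, estimated read counts per gene with fractions, in 1 column for each of 24 mice. Per the labels each mouse had 2 sequencing runs, and it is not known here if a column holds 1 run or their sum. Per the submitters' processing notes the build was mm10, and DESeq2 1.42.0 and limma 3.58.1 were among the tools, with no role stated. Aligner, counting tool and use of strand: not given in the sources used here. A further 24 columns of no listed sample were not used. Counts were rounded, genes kept with edgeR 4.0.16 filterByExpr (minimum count 10, minimum total 15, 12634 genes), scaled by TMM and fitted in R 4.3.3 by its quasi-likelihood test over all 8 groups together (16 residual degrees of freedom). CPM are on TMM-adjusted totals. Intervals are 95% intervals of the fitted difference. The 13 comparisons were KO against WT at 4 times, bleomycin against naive on 3 days in 2 genotypes, and the genotype difference in that response. The members and lists were chosen with earlier results of these data known. Besides the 10 members, named pathway genes are up to 4 called genes with the smallest p per comparison and at least 1 CPM in the higher group, and other days of such genes are given beside. Likeness is Pearson's r over 24 mice. The pipeline was tested on simulated data, with 200 genes changed between WT naive and WT day 14 mice. It recovered 32.8% of 1.5-fold, 71.6% of 2-fold and 89.4% of 4-fold changes, so a change of such a size can go uncalled. Of its 134 calls 5 were false. Alternatives were DESeq2, median-ratio scaling, no filter, a model of only the groups compared, a block for mouse number, and each mouse left out. Mice of a group differed by more than sampling noise, with a chi-square of 13.4 to 227 times its degrees of freedom.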

Additional observations from a re-analysis of the deposited data

How the results depend on the processing

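No called change of a member turned direction under any alternative run. Pde2a kept its calls at days 7 and 21 in both genotypes under each of them. Its day 14 values, a description, kept their direction. In models of only those groups being compared, 1 pathway gene was called between KO and WT in naive mice in place of 0. KO day 21 against naive then had 2 members in place of 4 and 13 pathway genes in place of 26. DESeq2 called 1 pathway gene between KO and WT at day 14 in place of 0, and for the genotype difference in the response 5 pathway genes at day 14 and 3 at day 21, and 1 member at day 21 (Crem, whose naive values chose it), in place of 0 each. With no expression filter 1 pathway gene was called for that difference at day 14. Median-ratio scaling moved no count by over 1.5 times, nor did the mouse number as a replicate block, under which WT day 7 kept 5 members and KO day 7 5. Same-numbered mice of different groups correlated at a mean of 0.0149 (-0.642 to 0.598), and 10 of 24 mice correlated best with their own number. With 3 mice a group, whether same-numbered mice shared handling cannot be told from this. The further numbers in the column names were not used. With the block Pde4d was called lower in KO mice at day 21 (edgeR adjusted p = 0.037), and no other member but Crem changed its call. Leaving out each mouse in turn gave 3 to 6 members at WT day 7, 2 to 5 at WT day 14, 2 to 4 at WT day 21, 3 to 5 at KO day 7, 2 to 3 at KO day 14 and 2 to 3 at KO day 21. Pathway genes ran from 31 to 38, 27 to 36 and 25 to 33 in WT mice and from 28 to 32, 15 to 25 and 13 to 31 in KO mice on the same days. Between KO and WT they ran from 0 to 4 at day 14, where members ran from 0 to 1 at day 21. For the genotype difference pathway genes ran from 0 to 6 at day 14 and members from 0 to 1 at day 21. Of 1627 member values under the alternatives, 80 that were called in neither setting changed sign.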
